A study of Mus musculus with 2 samples.

Results

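The glycolytic isozymes described here are 9 genes, Hk1, Hk2, Pgk1, Pgk2, Pgam1, Pgam2, Eno1, Ldhb and Ldhc, which 14 of the 15208 non-control probes on the array measure. They were taken by gene symbol from a list chosen by the values of these same arrays, so their differences between the arrays are a description and were not tested. Of 9432 genes compared, these 9 all had a probe well above background on both arrays.

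The study asked how the expression profile of Sertoli cells, the somatic nurse cells of the seminiferous tubule, differs after busulphan, an alkylating drug given to empty the testis of germ cells. The control group was 1 preparation from untreated male Swiss mice, and the busulphan group 1 preparation from male Swiss mice that had received 25 mg/kg of body weight. All mice were 3 months old, and the treated mice were taken 1 month after the drug. The cells were labelled Sertoli cells because a fine strainer held them back after enzymatic digestion of the testes; they were not cultured, and the number of mice behind each preparation is not given in the sources used here. Total RNA of each preparation was labelled with Cy3 and hybridised to 1 single-colour 60-mer array, so n = 1 per group and every direction below compares these arrays, not the treatments.

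Glycolysis turns glucose into pyruvate in a chain of enzyme steps, and lactate dehydrogenase then interconverts pyruvate and lactate. Several of these steps are served by isozymes, enzymes of the same activity made from different genes, and male germ cells replace widely expressed isozymes by forms of their own from meiosis onwards. Sertoli cells take up glucose and release lactate, which germ cells use as a fuel.

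Probe sequences are shown for the genes with several probes or a probe over a junction, to make plain which stretch of the transcript each ratio reads. The 60-base probes, copied from the array files in the orientation of the transcript, were placed by the files on mm9. Hk1 had 6 probes on the minus strand, of which the probe starting at base 319 of the transcript lies at chr10:61778201-61778260, that starting at base 2798 at chr10:61734377-61734436 and that starting at base 2908 at chr10:61732735-61732794. The Pgam2 probe lies at chr11:5701822-5703040 on the minus strand and the Eno1 probe at chr4:149618134-149618359 on the plus strand; both intervals, of 1219 and 226 bases, are longer than the probe, which therefore crosses a splice junction. No part of these probes is put in capitals.
Hk1 probe at base 319: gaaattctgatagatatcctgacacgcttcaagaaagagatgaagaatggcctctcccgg
Hk1 probe at base 2798: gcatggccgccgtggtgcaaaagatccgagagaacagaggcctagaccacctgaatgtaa
Hk1 probe at base 2908: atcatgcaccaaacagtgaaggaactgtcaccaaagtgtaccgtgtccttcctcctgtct
Pgam2 probe: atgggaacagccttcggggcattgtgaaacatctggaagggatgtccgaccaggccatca
Eno1 probe: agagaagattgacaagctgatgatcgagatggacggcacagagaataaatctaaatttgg
Which of the probes read coding sequence, and which an untranslated region, is not stated in the files.

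Promoters are shown for the phosphoglycerate kinase and lactate dehydrogenase pairs, whose members differed in opposite directions and whose lower member is known for expression in germ cells. The 250 bases before the start were taken from RefSeq on GRCm38.p6, a different build from that of the probes, and are printed in the direction of transcription. Capitals mark every match, on either strand, to GGGCGG (the core of a GC box), CCAAT (the CCAAT box), TGACG (a half-site of the cyclic AMP response element) or TATAAA (the TATA box). No marked matches overlap one another.
Pgk1, chrX:106186850-106187099, plus strand: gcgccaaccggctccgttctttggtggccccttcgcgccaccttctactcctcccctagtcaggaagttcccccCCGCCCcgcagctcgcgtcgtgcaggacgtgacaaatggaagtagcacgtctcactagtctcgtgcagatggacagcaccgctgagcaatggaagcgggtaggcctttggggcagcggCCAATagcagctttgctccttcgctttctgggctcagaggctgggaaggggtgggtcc
Pgk2, chr17:40208610-40208859, minus strand: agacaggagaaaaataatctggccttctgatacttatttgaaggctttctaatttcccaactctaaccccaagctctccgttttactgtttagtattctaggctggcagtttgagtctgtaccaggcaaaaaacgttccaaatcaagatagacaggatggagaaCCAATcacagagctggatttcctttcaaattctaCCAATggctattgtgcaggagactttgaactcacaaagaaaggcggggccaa
Ldhb, chr6:142507958-142508207, minus strand: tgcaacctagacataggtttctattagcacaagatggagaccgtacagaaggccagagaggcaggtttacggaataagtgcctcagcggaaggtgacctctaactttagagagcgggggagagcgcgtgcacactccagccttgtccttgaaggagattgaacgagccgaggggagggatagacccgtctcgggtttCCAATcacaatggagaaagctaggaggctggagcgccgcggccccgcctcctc
Ldhc, chr7:46861013-46861262, plus strand: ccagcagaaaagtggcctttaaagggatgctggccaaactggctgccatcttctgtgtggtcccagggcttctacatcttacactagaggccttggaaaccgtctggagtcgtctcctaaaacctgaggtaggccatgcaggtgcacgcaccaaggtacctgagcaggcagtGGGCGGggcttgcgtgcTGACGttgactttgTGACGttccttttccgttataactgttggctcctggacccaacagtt
The Pgk1 window held GGGCGG on the reverse strand from 176 bases and CCAAT from 58 bases before the start, and the Pgk2 window held CCAAT from 86 and from 52 bases before it. The Ldhb window held CCAAT from 53 bases before the start. The Ldhc window held GGGCGG from 78 bases and TGACG from 61 and from 47 bases before the start. Of the 250-base windows of all 32851 promoters in the RefSeq table, 32.7% held GGGCGG, 33.8% CCAAT, 17.8% TGACG and 12.4% TATAAA on either strand. A match is a string of letters and not a binding site.

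The windows also differed in CpG content, given as the observed number of CpG over that expected from the base composition, for which the median of all windows was 0.37. The ratio was 0.69 for Pgk1 and 0.27 for Pgk2, 0.86 for Pgam1 and 0.06 for Pgam2, and 0.72 for Ldhb and 0.43 for the Ldhc start shown. Ldhc has a second start in the table, at a ratio of 0.15. Hk2 stood at 0.85, while the starts of Hk1 stood at 0.57 and 0.07 and the 3 starts of Eno1 at 0.47, 0.66 and 0.64. The windows of the 4 genes that were higher on the busulphan array thus all had ratios above those of the 5 genes that were lower, a pattern seen after the values were known and not tested. The gap was narrow, between 0.69 for Pgk1 and 0.66 for an Eno1 start, and the probes of both genes may also read gene copies. The split into higher and lower genes itself follows from how the genes were chosen. GC content was 62.8% for Pgk1 against 42% for Pgk2, and 64% for Pgam1 against 53.2% for Pgam2. It did not part the higher from the lower genes. Ldhb stood at 56.4% and the Ldhc starts at 54.4% and 59.2%. Hk2 stood at 69.6%, the Hk1 starts at 62.8% and 49.6%, and the Eno1 starts at 55.6%, 71.2% and 69.2%. All 9 genes were matched in the table, with 13 starts.

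Signals are the scanner software's processed intensity, and a log2 ratio is the busulphan over the control signal after each was divided by its array's 75th percentile. A gene was called higher or lower at a ratio of at least 2-fold, a log2 ratio of 1 either way. A gene with several probes took its brightest one. Where a spot was saturated on 1 array the ratio is a bound, written as at least so many fold. The error given with a ratio combines the scanner software's errors of both its spots, and is about 0.20 on the log2 scale. It says nothing about the spread between animals or preparations.

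The control array had 80.9% and the busulphan array 79.3% of probes well above background, with 106 and 18 probes saturated, and the number of arrays limits the precision. On the same arrays 13 of 14 Sertoli cell markers compared were higher (median log2 ratio 3.58; summed signal 21083 in the control and 183899 after busulphan). All 10 spermatid markers were lower (median -5.80, with 7 bounds; summed signal 535918 and 37675), as were 9 of 11 spermatocyte markers (median -2.95; 130953 and 16091), and 6 of 8 macrophage markers were higher (median 3.25; 1323 and 7186). The other marker lists were mixed. Of 7 spermatogonium markers 2 were higher and 1 lower, and of 5 Leydig cell markers 1 was higher and 1 lower. Of 4 peritubular myoid markers 1 was higher, of 6 endothelial markers 1 was higher and 2 lower, and of 4 erythroid markers 1 was higher and 1 lower. Every marker counted here was well above background on both arrays, so both preparations held RNA read by the spermatid markers beside that of Sertoli cells. Spike-in controls gave a mean log2 ratio of 0.88, so that scaling to them lowers every ratio below by 0.88 and turns the all-gene median from 0.07 to -0.81. The part of these marker shifts in the isozyme ratios was not tested, and fewer cells of a type and less RNA per cell cannot be told apart. Each group has a preparation, a labelling and an array of its own, and these cannot be told apart from the drug.

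Of the 9 isozyme genes, 4 were higher on the busulphan array (Hk2, Pgk1, Pgam1 and Ldhb), against 31.3% of all genes compared, and 5 were lower (Hk1, Pgk2, Pgam2, Eno1 and Ldhc), against 29.5% of all genes. These counts follow from how the genes were chosen. In each of the 4 enzymes measured by a pair of genes, the members of the pair lay on opposite sides. Of the 14 probes, 4 were saturated on the control array, those of Pgk2, Pgam2 and Ldhc and the brightest of Hk1, and 1, that of Ldhb, was saturated on the busulphan array. The other 9 were saturated on neither. The median log2 ratio of the 9 genes, with bounds at their bound, was -1.44, beside 0.07 over all genes.

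**Figure D1:**
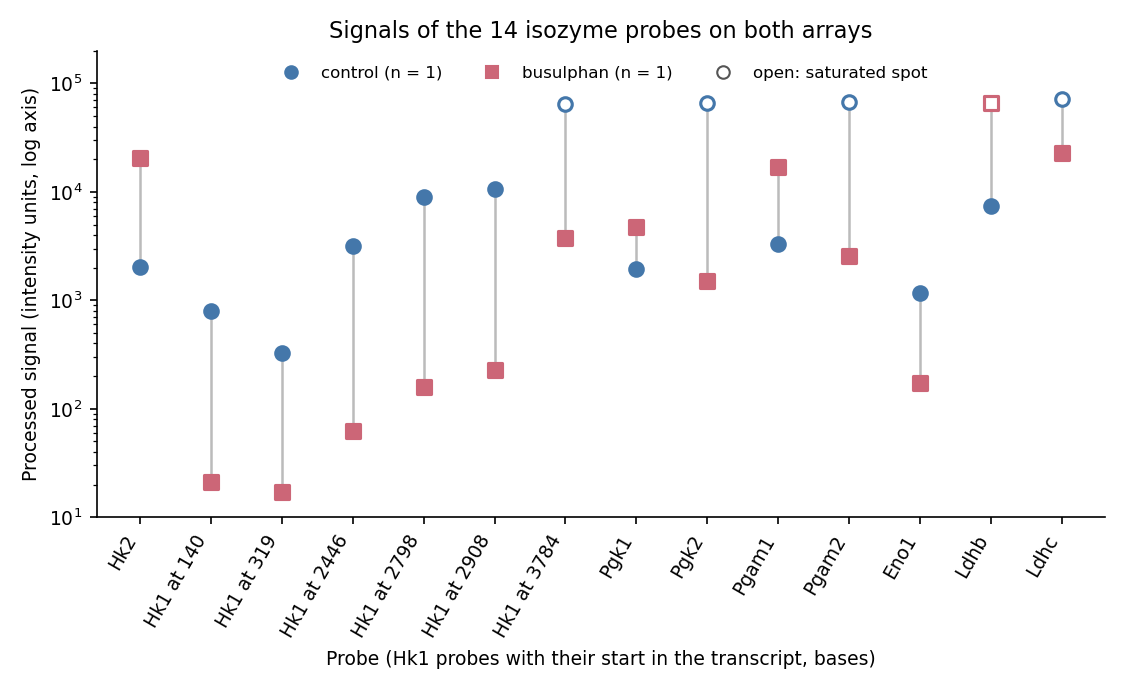
Processed signal of the 14 isozyme probes on the control (circles) and the busulphan array (squares), on a log axis, with n = 1 array each; open symbols are saturated spots and a line joins the 2 values of a probe. Every Hk1 probe and those of Pgk2, Pgam2, Eno1 and Ldhc had the higher signal on the control array, and those of Hk2, Pgk1, Pgam1 and Ldhb on the busulphan array.

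Hexokinase phosphorylates glucose and so traps it in the cell. Hk2, the hexokinase best known from insulin-responsive tissues, read 2022 in the control and 20679 after busulphan. It was 11.8-fold higher on the busulphan array (log2 ratio 3.56, error 0.20), and 2.33% of the genes compared had a higher ratio. Its single probe lies at chr6:82675056-82675115 on mm9, minus strand.

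Hk1, the widely expressed hexokinase of which germ cells make their own transcript forms, differed in the other direction at each of its 6 probes. Its brightest probe (chr10:61731916-61731975) starts at base 3784 of a different Hk1 transcript from the one that numbers the other probes. It read 64870 on the control array, where all 66 of its pixels were saturated, and 3752 on the busulphan array. Hk1 was therefore at least 15.0-fold lower by that probe (log2 ratio -3.90 or below).

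The 5 unsaturated Hk1 probes gave larger differences than this bound. The probe at base 2908 read 10732 in the control and 225.4 after busulphan (log2 ratio -5.36, error 0.20). The probe at base 2798 read 9053 and 158.2, the lowest ratio of the 5 (log2 -5.63, error 0.20). These neighbouring probes, shown above, differed by little more than the error of either ratio.

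The remaining Hk1 probes were dimmer. The probe at base 2446 read 3157 in the control and 61.97 after busulphan (log2 ratio -5.46, error 0.21). Its place is uncertain, since the files give it an interval of only 31 bases, chr10:61731603-61731633, which lies beyond those of the probes further along the transcript. Near the start of the transcript, the probe at base 140 (chr10:61821119-61821178) read 791.2 and 21.18 (log2 -5.01, error 0.23) and the probe at base 319 read 324.0 and 17.24 (log2 -4.02, error 0.24). The files tie the probe at base 140 to 1 RefSeq transcript of Hk1 and the other 5 probes to 2. The unsaturated probes thus covered folds from 16.3 to 49.5, with a median log2 ratio of -5.36 and an SD over probes of 0.64. The largest software error of a ratio among them was 0.24. Probes of 1 gene on 1 pair of arrays share the same RNA and are not replicates. The Hk1 ratios nearest the transcript start moved most with the background correction. With normexp correction (a model of background noise, offset 50) they were -3.23 at base 140 and -2.12 at base 319. These differences are smaller than the bound of -3.95 that the saturated probe gave under the same correction.

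**Figure D2:**
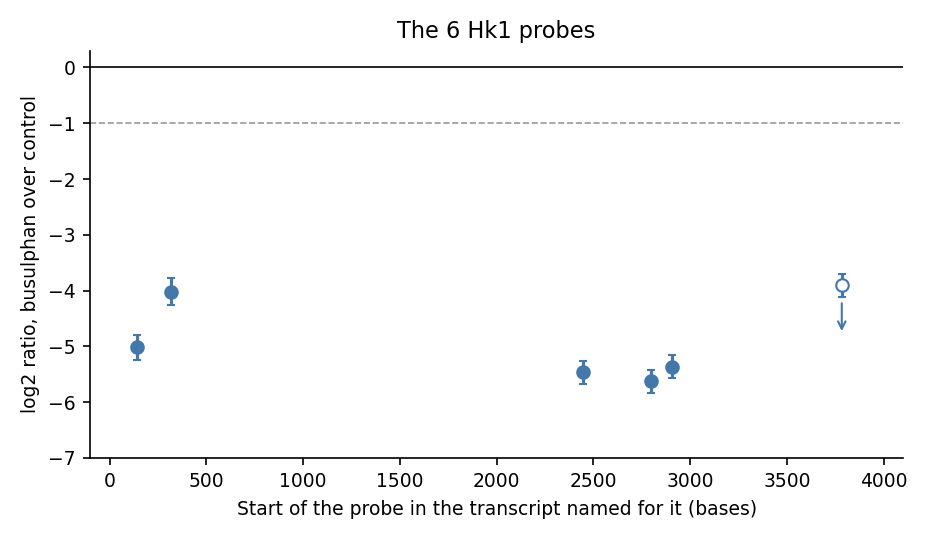
Log2 ratio of busulphan over control for the 6 Hk1 probes against the start of each probe, in bases of the transcript named for it. The start of the saturated probe is numbered in a different transcript from the others. Bars are the software error, and the open point with an arrow is the bound from the probe saturated on the control array. The dashed line is 2-fold lower. All 6 probes lie below the line, the 5 measured ones between -5.63 and -4.02 and the bound at -3.90.

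The phosphoglycerate kinase step makes ATP. Pgk1, its widely expressed X-linked gene, read 1948 in the control and 4716 after busulphan, 2.80-fold higher (log2 ratio 1.48, error 0.20). This was the smallest ratio among the 4 higher genes, and 22.7% of all genes compared had a higher one. With spike-in scaling it lay within 2-fold, at 0.60. The files place the Pgk1 probe at chr3:57906703-57906762 on mm9, although RefSeq puts Pgk1 on chromosome X, so its signal may include that of a processed copy and the gene and its copies cannot be told apart.

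Pgk2 is an autosomal retrogene copy of Pgk1 that is expressed in meiotic and later germ cells, when the X chromosome is silent. Its probe (chr17:40344145-40344204, minus strand) read 66530 on the control array, with all 66 pixels saturated, and 1517 on the busulphan array. It was at least 38.0-fold lower (log2 ratio -5.25 or below). The pair differed in its log2 ratios by at least 6.73 (error 0.29), or at least 106-fold between the ratios.

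Phosphoglycerate mutase shifts the phosphate that pyruvate kinase later uses. Pgam1, the form first described in brain and expressed widely, read 3313 in the control and 17003 after busulphan. It was 5.93-fold higher (log2 ratio 2.57, error 0.20), from a probe at chr19:41992898-41992957, plus strand. Pgam2, the form of muscle that is also found in sperm, read 66936 on the control array, with all 64 pixels saturated, and 2551 on the busulphan array. It was at least 22.7-fold lower (log2 ratio -4.50 or below). The log2 ratios of the pair lay at least 7.07 apart (error 0.29).

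Enolase makes phosphoenolpyruvate. Eno1, the widely expressed enolase, read 1164 in the control and 174.0 after busulphan. It was 5.79-fold lower (log2 ratio -2.53, error 0.20), with neither spot saturated. It was thus the single member known for wide expression, beside Hk1, that was lower on the busulphan array. Its probe is tied by the files to a second RefSeq transcript as well, of the near-identical gene copy Eno1b, and the 2 genes cannot be told apart. No other Eno1 probe was on the array, so the direction rests on 1 spot per array.

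Lactate dehydrogenase is a tetramer of subunits from several genes. Ldhb, the subunit that predominates in heart, read 7354 in the control and 65641 after busulphan, where 65 of its 66 pixels were saturated. It was at least 10.3-fold higher (log2 ratio 3.37 or above), from a probe at chr6:142438838-142438897, minus strand. Ldhc, the subunit specific to male germ cells, read 71838 on the control array, with all 64 pixels saturated, and 22966 on the busulphan array. It was at least 2.71-fold lower (log2 ratio -1.44 or below), from a probe at chr7:54133274-54133333, plus strand. The Ldhc bound is the weakest of those given for the lower genes, which does not rank its difference, and its busulphan signal of 22966 is still far above the array's 75th percentile of 905.0. How far the ratio lies beyond the bound cannot be read from these arrays. The log2 ratios of Ldhb and Ldhc were at least 4.80 apart (error 0.29), although both are bounds.

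**Figure D3:**
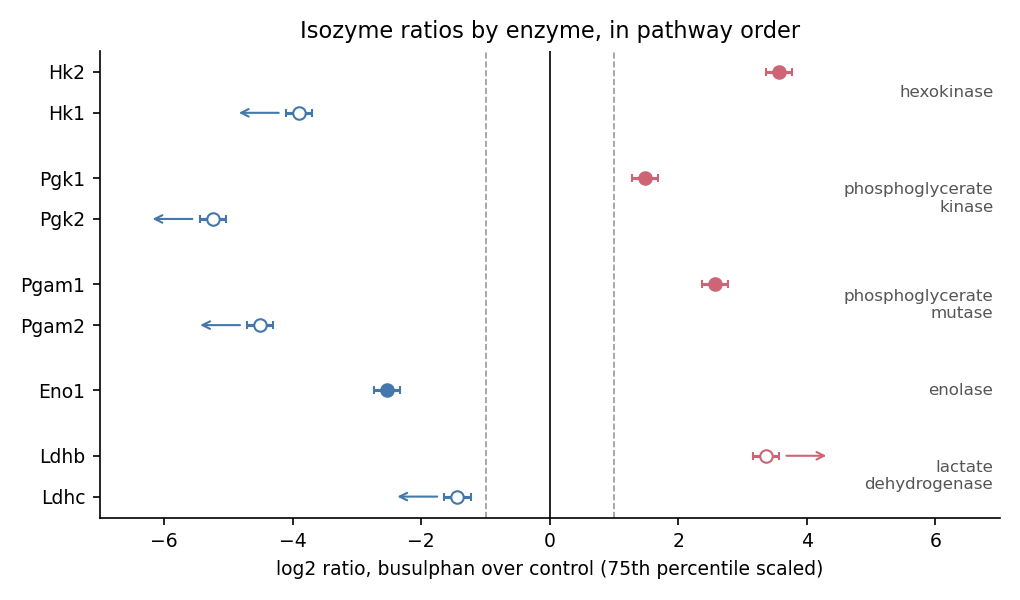
Log2 ratio of busulphan over control for the 9 isozyme genes, grouped by enzyme in pathway order; points are the brightest probe, bars the software error, open points with arrows bounds from a saturated spot, and dashed lines 2-fold. Within each pair 1 gene lies above the upper and the other below the lower dashed line, and Eno1 stands alone at -2.53.

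Isozymes were compared by the difference of their log2 ratios, since levels of different probes cannot be set against each other. A constant scaling cancels in such a difference. Hk2 and Hk1 were apart by at least 7.47 (error 0.29), or at least 177-fold between the ratios. With the brightest unsaturated Hk1 probe the difference was 8.93, and with the unsaturated Hk1 probe of smallest fold, at base 319, 7.59. With normexp correction the log2 ratio of that probe was -2.12 and that of Hk2 3.56, so the latter difference was smaller. The ratios of the mutase pair were at least 135-fold apart, those of the kinase pair at least 106-fold and those of the lactate dehydrogenase pair at least 27.9-fold. These bounds give no order of the pairs, because the saturated spots hide how large each difference is.

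**Figure D4:**
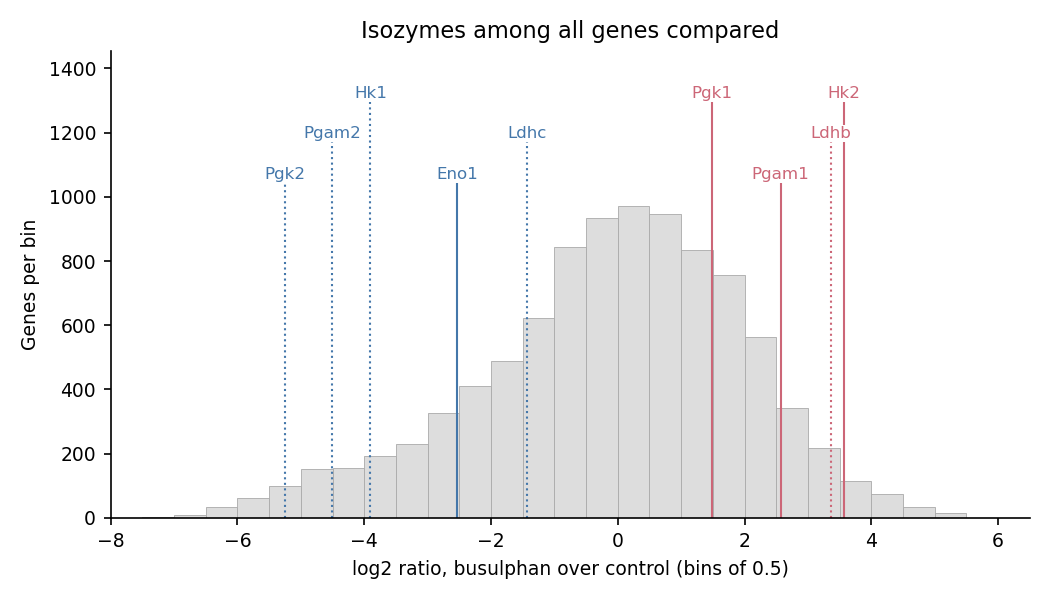
Number of genes per bin of 0.5 in log2 ratio of busulphan over control, for the 9432 genes compared, with the 9 isozymes as vertical lines, dotted where the value is a bound. The lines run from the bound of -5.25 for Pgk2 to the measured 3.56 for Hk2, and the median of all genes is 0.07.

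The other genes of glycolysis and lactate transport were read from a list of 36, of which 27 were compared. Of these 8 were higher, 13 were lower and 6 differed by less than 2-fold, which makes 29.6% higher and 48.1% lower beside 31.3% and 29.5% of all genes. Their log2 ratios had a median of -0.90, beside 0.07 over all genes, and reached from -6.36 to 4.15. This list was also drawn up with earlier results of these data known, and its spermatid gene Gapdhs is counted among the spermatid markers too. Slc2a3 was not well above background on either array, and Hk3, Hkdc1, Pfkfb1, Pfkfb4, Aldoart1, Aldoart2, Gapdh and Eno1b had no named probe.

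Glucose uptake and the early steps held genes on both sides, as the hexokinases did. The glucose transporters Slc2a1 (1087 in the control and 3655 after busulphan, log2 ratio 1.96) and Slc2a4 (log2 1.31) were higher and Slc2a8 lower (log2 -1.98). Among phosphofructokinases, Pfkl, the liver form, was 8.95-fold higher (233.5 and 1808), and Pfkm, the muscle form, 5.56-fold lower (17567 and 2735). The probes of Pfkp disagreed, at -2.20 for the brighter and at least 1.42 for the other. Pfkfb3, which makes the allosteric activator of phosphofructokinase, was 7.97-fold higher (969.3 and 6683). Its relative Pfkfb2 was higher by its brightest probe (log2 1.30), while its other probes gave 1.15, 0.83 and -2.74.

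The genes compared at the isomerase, glyceraldehyde phosphate and bisphosphoglycerate steps were all lower. Gpi1, the isomerase that follows hexokinase, was at least 4.81-fold lower, its control spot being saturated. Tpi1, triosephosphate isomerase, was 4.81-fold lower (24474 and 4404). Gapdhs, the sperm form of glyceraldehyde phosphate dehydrogenase, was at least 82.4-fold lower (63978 on the control array, saturated, and 671.7), which is a lower bound beyond that of every isozyme member. Bpgm, a relative of the mutases, was lower too (12967 and 703.4, log2 ratio -4.00).

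The other enolases, aldolases and pyruvate kinases were mixed. Eno4, an enolase of sperm, was 22.8-fold lower (1407 and 53.49), and Eno3, the muscle form, 2.51-fold lower (7383 and 2543), so that 3 of the 4 enolases compared, Eno1 included, were lower. Eno2, the neuronal form, lay at 0.08 by its brighter probe and at 0.67 or above by the other. The aldolases Aldoa and Aldoc lay at -0.82 and 0.75, but the other Aldoc probe gave at least 2.07. Pkm lay at 0.61, with its other probe at 0.29, and Pklr at -0.83.

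Of the lactate dehydrogenase genes compared beyond the pair, only Ldhd was higher. Ldha, the subunit of muscle, was at least 5.26-fold lower (64788 on the control array, saturated, and 10662), and its unsaturated probe gave a log2 ratio of -2.68. Ldhal6b, a germ cell relative of Ldha, was 18.8-fold lower (64173 and 2950). Its control spot carried no saturation flag, but the saturated control spots of Gpi1 and Gapdhs read less (63464 and 63978), so its signal lay near the scanner's limit. Ldhd, which acts on D-lactate in mitochondria, was 17.8-fold higher (43.96 and 676.4), with its other probe at 1.72. Ldhb and Ldhd were thus the higher genes among the 5 listed under lactate dehydrogenase. Apart from Ldhd, the one that acts on D-lactate, only Ldhb was higher.

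The lactate transporters also lay on both sides. Slc16a1 was higher (1038 and 5392, log2 ratio 2.59), with its other probes at 2.68 and 2.12, and so was Slc16a3 (212.0 and 476.2, log2 ratio 1.38). Slc16a7 was 27.7-fold lower (20486 and 638.8). Bsg, the chaperone that carries several of these transporters to the membrane, was 5.49-fold lower (4515 and 712.3), and Slc16a8 lay at -0.90.

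**Figure D5:**
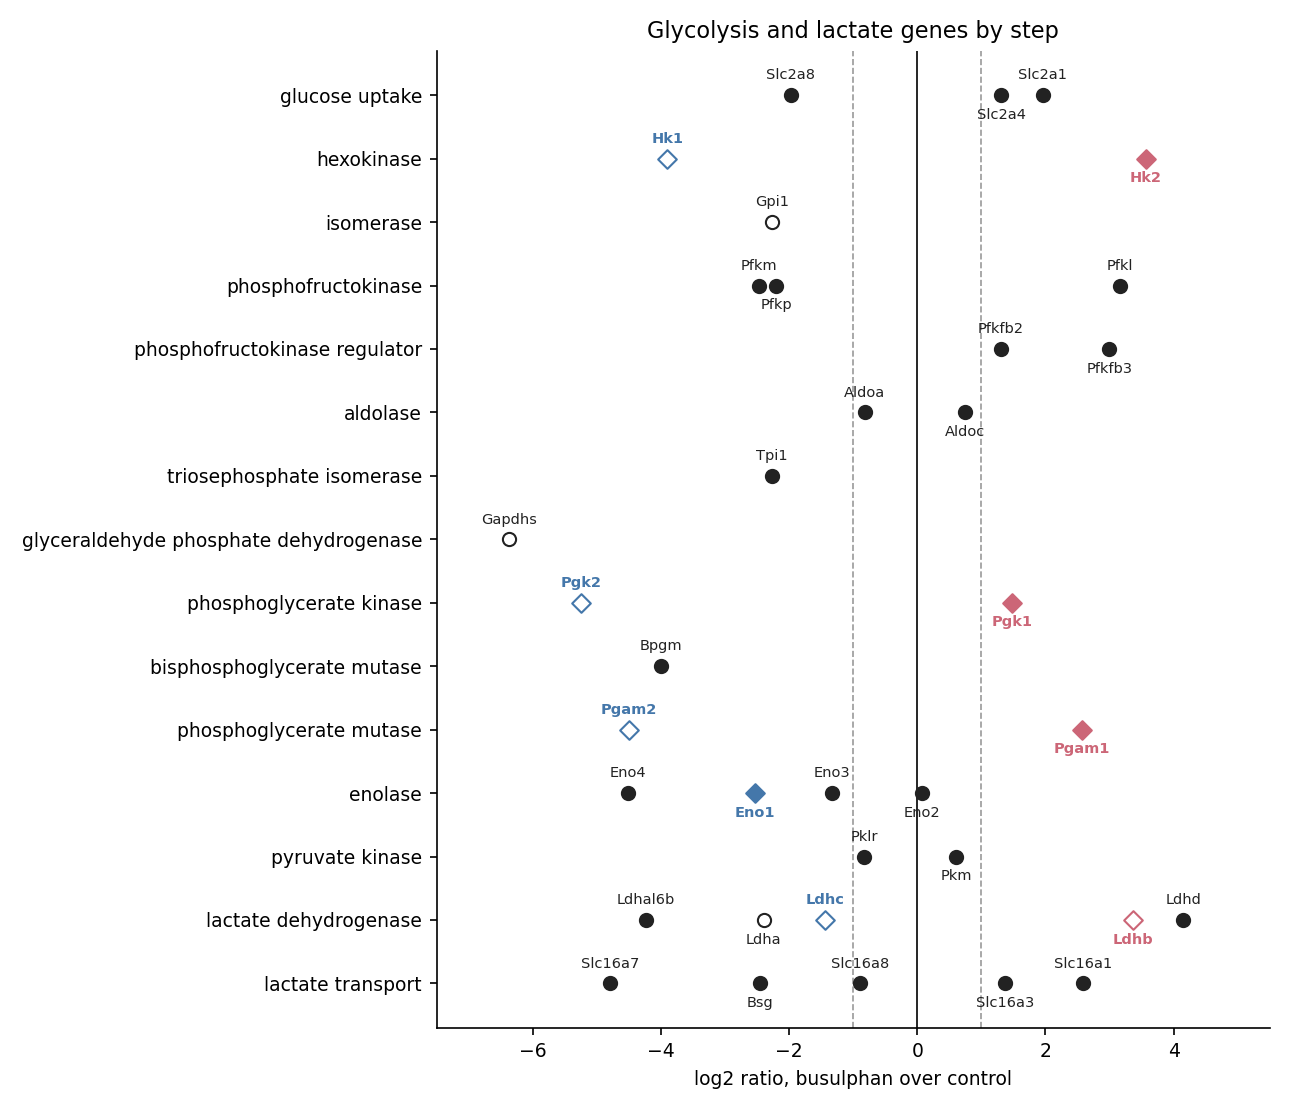
Log2 ratio of busulphan over control for the 9 isozyme genes (coloured diamonds) and the 27 other glycolysis and lactate genes compared (black circles), by step from glucose uptake to lactate transport; open symbols are bounds from a saturated spot and dashed lines 2-fold. Glucose uptake, hexokinase, phosphofructokinase, phosphoglycerate kinase, phosphoglycerate mutase, lactate dehydrogenase and lactate transport each hold genes beyond 2-fold on both sides. The phosphofructokinase regulators were higher by the probe plotted, the brightest of each gene. No gene of the remaining steps, enolase among them, was at least 2-fold higher by that probe.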

How the data were processed

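Per the file headers, the deposited intensity values are processed signals, corrected for background and spatial trend by Agilent Feature Extraction 11.5.1.1. The deposited log2 values of the series table equal log2 of that signal less 10.03 (control) or 9.82 (busulphan); their medians were -2.94 and -2.77. Both arrays carry the same scan time.

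From 15744 spots, control spots and 4 outlier probes were left out. Log2 signals were scaled to each array's 75th percentile (signals of 1046 and 905.0). A probe was kept if 1 array or both showed it well above background. A gene took the probe with the highest mean. A spot saturated on 1 array, or dim on 1, gave a bound, which applied to 1029 of 9432 genes; of the isozymes, 5 carry bounds, all from saturation. RefSeq symbols named 13330 probes and 1878 kept the files' name. Probe coordinates were copied from the files (mm9).

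With n = 1 per group there was no test; genes were called at 2-fold, and software errors of the spots were combined into that of a ratio. The calling rule was tested on simulated data from probes well above background and saturated on neither array. The only noise added was the software error of the spots, so saturated spots and the spread between preparations were not covered. The genes, pathway and marker lists were chosen with earlier results of these data known. Named were every probe of the 9 genes and every gene of the pathway list, except 2 that are not reported here and enter none of its counts; marker lists are given by counts. Python 3.11.15, pandas 2.3.3, numpy 2.4.6, R 4.3.3 and limma 3.58.1 (for normexp) were used. Alternatives covered background correction, 5 other scalings, the deposited log2 table, bounds, probe choice, the dim filter and thresholds of 1.5-fold and 4-fold.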

Additional observations from a re-analysis of the deposited data

How the results depend on the processing

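Of 95 isozyme ratios recomputed under the 11 alternatives that give values, 95 kept their sign and 1 fell within 2-fold, that of Pgk1 at 0.60 with spike-in scaling. The kept signs are no test of the directions, since the genes were chosen by these values and some alternatives could change little. Measured values in place of bounds and no dim filter left every isozyme ratio as it was. The scalings other than quantile normalization shift all ratios by 1 constant. Scaling to the spike-ins also left 5 other glycolysis and lactate genes higher, and turned the all-gene split from 2952 higher and 2784 lower to 1524 and 4376, so that 25.8% instead of 51.5% of calls were higher. Without scaling the all-gene median was -0.14. With quantile normalization the kinase pair lay at least 7.03 apart and the mutase pair at least 7.60. With the median over probes, which takes the saturated Hk1 probe at its bound, the hexokinase pair lay at least 8.75 apart. It lay 8.93 apart with the brightest probe saturated on neither array. Under the latter choice Pgk2, Pgam2, Ldhb and Ldhc have no probe and no value, and 2 isozyme genes were lower. At 4-fold, 4 other glycolysis and lactate genes were higher. The other counts of isozyme and pathway genes lay within 1.5 times the reported ones. No paired analysis was possible because each group holds 1 array. Saturation limits the size of 5 isozyme ratios, and dim busulphan spots limit the Hk1 probes near the transcript start.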

Other observations

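Genes that govern the entry of pyruvate into the mitochondrion were compared on the same arrays, by the same rules. Of 8 listed 7 were compared, of which 4 were higher, 2 lower and 1 within 2-fold, or 57.1% higher and 28.6% lower beside 31.3% and 29.5% of all genes. The pair of pyruvate dehydrogenase E1 alpha genes lay on opposite sides, like the 4 isozyme pairs chosen for this description, though not like every enzyme of glycolysis. Pdha1, which is X-linked, read 280.3 in the control and 704.3 after busulphan, 2.90-fold higher, with its other probe at a log2 ratio of 1.47. Pdha2, its autosomal copy expressed in male germ cells, read 11668 and 688.5 and was 14.7-fold lower. The pyruvate dehydrogenase kinases, which switch the complex off, were split. Pdk1 was 6.71-fold, Pdk3 7.22-fold and Pdk4 4.44-fold higher, and Pdk2 was 10.6-fold lower (958.2 and 78.14). Mpc1, a subunit of the mitochondrial pyruvate carrier, lay at a log2 ratio of 0.25, and Mpc2 had no named probe.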
